A study of Mus musculus with 11 samples.

Results

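The nuclei described here are those of trigeminal ganglion neurons that carry Trpm8, the cation channel opened by cool temperatures and menthol. They were selected on 4 genes: a nucleus had to hold at least 2 unique molecular identifiers (UMIs, each standing for 1 captured RNA molecule) of Trpm8, and at least 1 UMI in the sum of Foxp2, Kcnh8 and Gpr26. Of 40359 nuclei in 8 tables, 1868 met this rule and are called Trpm8 nuclei. They were compared with the 36862 nuclei that held 0 Trpm8 UMIs.

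The tables came from single-nucleus RNA-seq of trigeminal ganglia of C57BL mice over 6 weeks old, enriched for neurons with an antibody to the nuclear protein NeuN. Wildtype ganglia gave 1 table from 10x Chromium and 1 table that joins 4 Drop-seq libraries. Spared nerve injury of the infraorbital nerve, in which its superficial branches were cut and not ligated (infraorbital transection, IOT), was sampled after 2, 7, 21 and 75 days. A facial injury library came from mice with skin cuts on the cheeks and forehead, taken 2 days later, and a scratch lesions library from mice with chronic scratching and visible facial lesions, of a mixed FVBN/C57BL/129 strain and doubly heterozygous for Fos-tTA and tetO-mCherry-2A-Gnaq. Each injury was thus 1 library of pooled mice of both sexes, and the scratch lesions library also differed in strain and transgene, so that lesions, strain, transgene and library cannot be told apart.

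Trpm8 neurons make up the main class of peripheral cold sensors. In the trigeminal ganglion their endings lie in the cornea, teeth, nose, mouth and facial skin, and their firing underlies the feeling of cool, the basal wetting of the eye and part of cold pain. Whether a given ending fires at a mild or a deep cooling depends on how much Trpm8 it carries set against the potassium currents that oppose it, of which the leak channels TREK-1 (Kcnk2) and TREK-2 (Kcnk10) and the shaker-type Kcna1 and Kcna2 are the usual examples. Of the other genes of the rule, Foxp2 encodes a forkhead transcription factor, Kcnh8 a voltage-gated potassium channel of the ELK group and Gpr26 an orphan receptor. Rora, given as a marker of these cells and not part of the rule, encodes an orphan nuclear receptor.

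Trpm8 nuclei formed 8.40% of the 10x control nuclei (367 of 4368, 95% Clopper-Pearson interval 7.60 to 9.26%) and 2.42% of the Drop-seq control (77 of 3178). After IOT the share was 6.09% at day 2 (281 of 4611), 3.15% at day 7 (127 of 4033), 6.87% at day 21 (278 of 4046) and 6.58% at day 75 (239 of 3634). It was 2.67% after facial injury (231 of 8660) and 3.42% with scratch lesions (268 of 7829). The interval of day 21, at 6.11 to 7.69%, overlapped that of the 10x control, and those of the other tables lay below it. Depth differed between the tables but did not follow the share throughout. The median nucleus without Trpm8 UMIs held 1910.5 UMIs after facial injury, 1745 at day 7 and 2291 with scratch lesions, against 3222 in the 10x control. Day 2 and day 75 were deeper than the 10x control, at 3328 and 4155.5 UMIs, with lower shares. With every nucleus thinned to 1104 UMIs, leaving out 1705 shallower nuclei over the 8 tables, the share was 3.98% in the 10x control, 2.60, 2.05, 2.27 and 1.62% at the 4 IOT days in order, 1.08% after facial injury and 1.28% with scratch lesions. The thinned share was highest in the 10x control, and no interval of another table reached its lower bound of 3.42%. Each condition was 1 library, so no test was made, and fewer Trpm8 neurons and less Trpm8 RNA per nucleus cannot be told apart. Intervals cover counting error only. Pairs of 10x libraries shared 16 to 92 cell barcodes, and 3 of these were members in both tables.

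**Figure D1:**
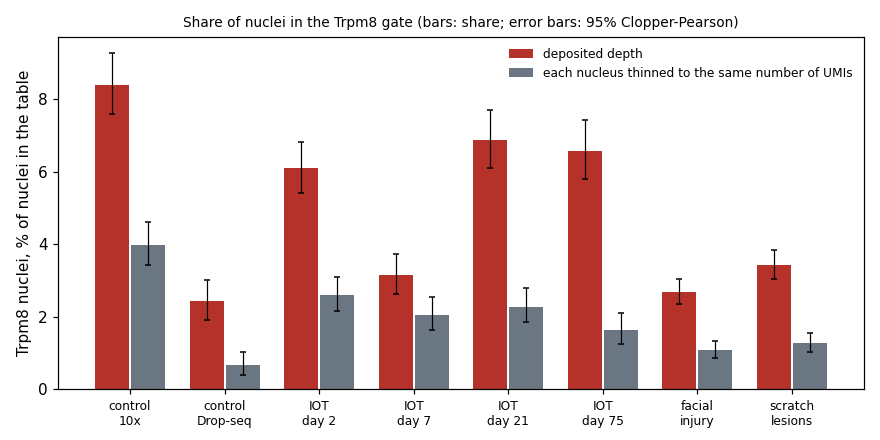
Share of nuclei that met the Trpm8 rule in each of the 8 tables, in % of the nuclei of the table, at the deposited depth (red bars) and with every nucleus thinned to the same number of UMIs (grey bars). Error bars are 95% Clopper-Pearson intervals; the 10x control stands highest both ways, at 8.40 and 3.98%.

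Just inside the rule, the members that held exactly 2 Trpm8 UMIs and 1 UMI of the other genes numbered 7 in the 10x control and 79 over the 7 10x tables. Rora was not used by the rule, and these just-inside nuclei held 581.3 to 2125 CPM of Rora (UMIs of the gene scaled to a fixed total) summed per table, against 1895 to 3635 in members with over 2 Trpm8 UMIs. Just outside, the 850 nuclei with 1 Trpm8 UMI and a UMI of the other genes held 990.6 to 1969 CPM of Rora. The 560 with 1 Trpm8 UMI and none of the others held 145.7 to 843.0, which overlaps the 199.0 to 367.7 of nuclei without Trpm8. The rule therefore left out nuclei whose Rora level lay within the range of its own marginal members.

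Trpm8 UMIs were also counted in nuclei gated by genes of other neuron classes. Mrgprd and Grik1 mark non-peptidergic nociceptors. Of the nuclei gated by these genes, 1.27 to 8.04% held a Trpm8 UMI over the 7 10x tables, at a median depth of 2250 to 4699 UMIs. The corresponding range was 2.82 to 12.8% in nuclei with Nefh and S100b, genes of large myelinated neurons, at 3501.5 to 6116 UMIs, and 4.92 to 13.4% in nuclei with Tac1 and Trpv1, genes of peptidergic heat-sensing neurons, at 1713.5 to 5084 UMIs. These gates can hold Trpm8 neurons as well as free RNA: up to 5.64% of the Nefh and S100b nuclei and up to 4.64% of the Tac1 and Trpv1 nuclei met the whole rule.

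Markers of the class were counted in the members. In the 10x control, 87.2% of Trpm8 nuclei held a Foxp2 UMI, 92.9% a Kcnh8 UMI and 50.4% a Gpr26 UMI, against 7.35, 14.2 and 3.56% of nuclei without Trpm8. As rule genes these shares are a description only. A Rora UMI was present in 98.9% of the members and 53.8% of the others, at median depths of 3071 and 3222 UMIs. Markers of other classes were rarer in the members: Mrgprd in 0.272% against 3.74%, Calca, the precursor of the peptide CGRP, in 26.2% against 40.1%, and S100b in 25.9% against 52.7%. Nefh, the heavy neurofilament, was found in 67.0% of Trpm8 nuclei and 60.2% of the others, and Tac1, the precursor of substance P, in 37.9 and 31.3%.

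Summed per table, Trpm8 itself stood at 1447 CPM in the members of the 10x control, 906 in Drop-seq, 1175, 1622, 1061 and 832 at the 4 IOT days, 1122 after facial injury and 1088 with scratch lesions. The rule sets a floor of 2 UMIs in the nucleus. The table with the highest CPM, day 7, was the shallowest of the 10x tables. Facial injury and scratch lesions, also shallower than the 10x control, stood below it in CPM. The part of depth in these levels was not tested. Foxp2 ran from 452 to 860 CPM and Kcnh8 from 671 to 1106 over the members of the 10x tables. A median member held 5 Trpm8 UMIs in the 10x control and 2 to 4 in the other 10x tables, and the highest single nucleus held 22, at day 75.

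Across the 7 10x tables, 13961 genes were tested between 1791 Trpm8 nuclei and 33882 nuclei without Trpm8, as summed counts with the table as a block (edgeR's quasi-likelihood test, Benjamini-Hochberg adjusted p under 0.05). The members were higher in 1942 genes (13.9%) and lower in 2933 (21.0%). These 7 sums come from different conditions and serve here as replicates of the class difference. Each p-value sets that difference against its spread over the 7 tables, in which pool of mice, condition and library are joined. Without the table as a block, 697 genes were higher and 1081 lower. The rule's genes were left out, as was Hjurp, whose outermost start adjoins that of Trpm8.

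Rora was the most abundant gene among the largest rises. In the members it ran from 1942 CPM after facial injury over a median of 2825 to 3496 in the 10x control, and in the other nuclei from 199 over 255 to 368, so the groups were far apart in every table. Its log2 fold change was 3.40 ± 0.07 (SE derived from the F statistic of the fit, n = 7 tables, edgeR adjusted p = 6.68e-25).

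The largest fold belonged to Slc34a2, a sodium-phosphate cotransporter better known from lung and gut epithelium. Trpm8 nuclei held 33.4 to 89.7 CPM of it, with a median of 40.7, and the other nuclei 0.416 to 3.18, a log2 fold change of 5.10 ± 0.22. Slc6a7, the brain proline transporter, was at 60.2 to 148 CPM against 2.51 to 7.35 (4.30 ± 0.16).

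Ccnd2, a D-type cyclin, was at 50.3 to 118 CPM in the members and 1.87 to 4.26 elsewhere (log2 fold change 4.49). Dnah6, an axonemal dynein heavy chain, was at 49.1 to 103 against 2.39 to 5.73 (4.32). The rule for naming genes required the same direction in all 7 tables, and 987 higher genes met it.

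Genes of synaptic and calcium signalling stood among the same 15 rises. Gsg1l, an auxiliary subunit that slows AMPA receptor recovery, was at 117 to 248 CPM against 5.75 to 14.3 (log2 fold change 4.17 ± 0.12). Hpca, which encodes the calcium sensor hippocalcin, was at 104 to 617 against 6.79 to 26.1 (3.91 ± 0.14), and Gng4, a G protein gamma subunit, at 63.7 to 138 against 5.13 to 16.7 (3.20 ± 0.12). Hpca was the more uneven of these over tables, with day 7 at 617 CPM and facial injury at 104.

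The endothelin receptor gene Ednra, at 54.0 to 81.3 CPM against 4.99 to 7.76, rose by a log2 fold change of 3.40 ± 0.13. Col4a3, a basement membrane collagen chain, rose by 3.63 and Cep89, a centriole protein gene, by 3.29. The remaining rises were loci without an assigned function: C430014B12Rik (4.69), 5930412G12Rik (4.06), 9630001P10Rik (3.63) and 1700123O21Rik (3.30). The largest adjusted p among all 25 genes named by size was 9.41e-13, that of Col4a3.

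Piezo2, the mechanically gated channel of touch receptors, was among the 10 largest falls and was the most abundant of them. Its level in the members ran from 40.7 CPM at day 7 over a median of 276 to 485 at day 75, below the 858 to 1474 of the other nuclei in each table (log2 fold change -2.12 ± 0.12). Kcnk10, the TREK-2 channel, fell from 50.9 to 102 CPM in the other nuclei to 6.70 to 36.8 in the members (-2.16 ± 0.13).

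The other falls were Tmem108 (log2 fold change -2.57), Zfp804b (-2.40), the axon guidance gene Ntng1 (-2.23), Mgat4c (-2.18), the sorting receptor gene Sorcs3 (-2.18), Rgs6, which shortens G protein signals (-2.17), Gm44905 (-2.14) and the transcription factor gene Dach1 (-2.10). Falls were smaller than rises at the top of each order. In the Drop-seq control, which the fit did not use, 23 of these 25 genes were listed and 23 of those 23 pointed the same way.

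**Figure D2:**
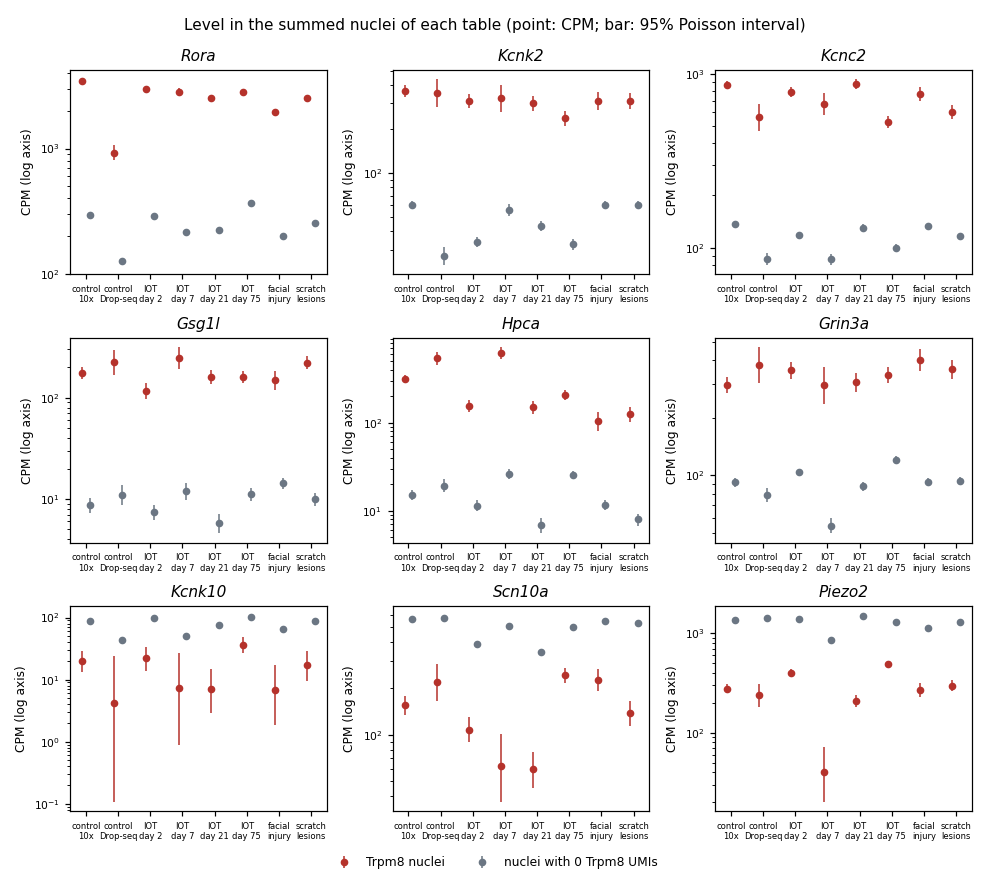
Level of 9 genes in the summed nuclei of each of the 8 tables, in CPM on log axes: red points are Trpm8 nuclei, grey points nuclei with 0 Trpm8 UMIs, bars 95% Poisson intervals. Rora, Kcnk2, Kcnc2, Gsg1l, Hpca and Grin3a lay higher in Trpm8 nuclei in every table, and Kcnk10, Scn10a and Piezo2 lower, with Piezo2 lowest at day 7 (40.7 CPM).

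Ion channels that set cold excitability did not move one way. Of 17 such genes, 7 were higher (41.2%) and 8 lower (47.1%), with a median log2 fold change of -0.15 against -0.04 over all genes. Of all genes tested, 13.9% were higher and 21.0% lower, and the counts of every list below stand beside these shares. The 2 TREK channels went in opposite directions. Kcnk2 was at 236 to 363 CPM in the members and 32.5 to 60.8 elsewhere (log2 fold change 2.70 ± 0.08), while Kcnk10 fell. Among the shaker-type channels that brake cold firing, Kcna2 was higher (0.64 ± 0.06) and Kcna1 lower (-1.03 ± 0.10). The hyperpolarization-activated channel Hcn2 (0.59 ± 0.09) and the proton-gated Asic1 (1.72) were higher.

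Sodium channels of pain fibers were lower. Scn10a, the tetrodotoxin-resistant channel NaV1.8, was at 59.6 to 243 CPM against 343 to 563 (log2 fold change -1.73 ± 0.11), and Scn11a (NaV1.9) at 14.8 to 53.6 against 61.3 to 158 (-1.59 ± 0.10). The beta subunit gene Scn4b went the other way, at 235 to 442 CPM against 110 to 234 (1.07 ± 0.06). Over the 14 sodium channel genes 6 were higher (42.9%) and 4 lower (28.6%), with a median of 0.07.

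Potassium channels as a group leaned lower: 16 of 53 rose (30.2%) and 32 fell (60.4%), with a median log2 fold change of -0.51. The rises included large ones. The inward rectifier Kcnj9 was at 15.3 to 29.6 CPM against 0.759 to 2.45 (3.90), the calcium-gated Kcnn3 at 2.87 to 14.8 against 0.246 to 1.29 (3.49), and the BK channel subunit Kcnmb2 at 262 to 419 against 42.5 to 65.5 (2.67). The fast delayed rectifier Kcnc2 stood at 527 to 871 against 85.9 to 137 (2.63 ± 0.06). Kcnh7, of the ERG group, was at 2694 to 5599 CPM against 749 to 1770 (1.57 ± 0.06).

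Among 17 calcium channel genes, 9 rose (52.9%) and 4 fell (23.5%, near the 21.0% of all genes tested), with a median of 0.19. The auxiliary subunits Cacna2d2 (log2 fold change 1.63) and Cacnb2 (1.41) and the T-type channel Cacna1h (1.19), at 57.0 to 116 CPM against 25.7 to 52.1, were higher. The T-type Cacna1i (-1.75) and the R-type Cacna1e (-1.63) were lower. Of 9 HCN channel and anoctamin genes 6 rose (66.7%) and 3 fell (33.3%). The heat-responsive chloride channel Ano1 was among the latter (-1.97).

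TRP channels other than Trpm8 were mostly lower, 9 of 14 (64.3%), with 3 higher (21.4%) and a median of -0.49. Of all genes tested, 21.0% were lower and 13.9% higher. Trpa1, the irritant sensor, was at 3.70 to 33.2 CPM against 19.9 to 57.9 (-1.14 ± 0.14). Trpv1, the capsaicin and heat receptor, was at 9.0 to 27.0 against 19 to 47.1 (-0.80 ± 0.13), and was below the other nuclei of its own table in 7 of 7 tables. Trpm5 (-2.04) and Trpc6 (-1.02) also fell. Trpv2, a channel of large myelinated neurons, was higher at 64.5 to 148 CPM against 39.5 to 52.9 (1.03 ± 0.09), as were Trpm2, a redox-sensitive warm sensor (0.74), and Trpc4 (0.44).

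Of 26 genes listed for Trpm8 regulation, mainly through its lipid cofactor PIP2 and protein kinases, 7 rose (26.9%) and 14 fell (53.8%). Their median was -0.38. The list was wide, and its falls include the touch channel gene Piezo2 (-2.12) and the receptor gene Ret (-1.15). Plcd4, a phospholipase C that consumes PIP2, was at 138 to 270 CPM against 25 to 41.4 (2.76), and Plcd3 rose too (1.36). Other phospholipase C genes fell: Plcb1 (-1.13), Plcb3 (-1.10), Plcb4 (-0.72), Plce1 (-0.88) and Plcd1 (-0.57). Plcg1 did not pass (0.05). The kinase gene Prkcb was at 477 to 739 against 135 to 232 (1.65 ± 0.07). The related kinase genes Prkca (-1.01), Prkce (-1.03) and Prkcd (-1.05) were lower, each in 7 of 7 tables. Pirt, a membrane protein that binds Trpm8 and raises its activity, was at 375 to 614 against 235 to 506 (0.54 ± 0.06), and Gnaq, the G protein subunit that inhibits the channel, was lower (-0.65 ± 0.05). The mice of the scratch lesions library carry a Gnaq transgene.

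Receptors for transmitters split within each family. For 18 ionotropic glutamate receptor genes 8 rose (44.4%) and 7 fell (38.9%), with a median of -0.21. Grin3a, an NMDA receptor subunit, was at 296 to 402 CPM against 54.6 to 120 (1.86 ± 0.07), and Grik1, a kainate receptor of non-peptidergic fibers, fell (-1.92). Of 12 GABA-A receptor genes, 5 rose and 5 fell (41.7% each). Gabrd, the delta subunit of tonic inhibition, was at 11.1 to 19.2 against 0.642 to 2.22 (3.94), Gabra3 at 31.9 to 59.1 against 10.7 to 16.3 (1.72), and Gabrg1 was lower (-1.54).

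Of 20 inhibitory G protein coupled receptor genes, 5 rose and 9 fell (median -0.48). Grm2, a presynaptic glutamate autoreceptor, was at 6.70 to 22.1 CPM against 0.233 to 1.90 (4.16). Npy1r, for neuropeptide Y, was at 16.0 to 37.0 against 5.48 to 10.7 (1.66 ± 0.19), and Oprm1, the mu opioid receptor, was higher as well (1.14 ± 0.07). Htr1d, the serotonin receptor that triptans act on, fell from 42.5 to 103 CPM to 3.70 to 25.5 (-2.01 ± 0.19), and Grm8 fell by 1.99 on the log2 scale.

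Neuropeptide genes were low: 7 of 11 fell (63.6%) and 1 rose (9.09%), with a median of -0.91. Of all genes tested, 21.0% were lower and 13.9% higher. Calca, at 104 to 502 CPM against 334 to 1325, fell (-1.36 ± 0.10), as did Sst (-1.92), Nts (-1.56) and Nmb (-1.0). Tac1 fell only slightly (-0.21 ± 0.07, adjusted p = 0.0109) and was above the other nuclei in 2 of 7 tables. The granin Scg2 rose (0.97).

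Of 41 transcription factor genes of sensory identity, 14 rose (34.1%) and 22 fell (53.7%), with a median of -0.30. Beside Rora the largest rises were Tox, at 107 to 181 CPM against 11.6 to 35.7 (3.09), Zfp536, at 129 to 243 against 18.7 to 35.2 (2.90), and Ebf2, at 92.1 to 188 against 13.9 to 28.0 (2.71). Runx1, the runt factor of unmyelinated nociceptor lineages, was higher at 278 to 473 against 119 to 216 (1.15 ± 0.07). Adhesion and guidance genes gave 25 rises (32.5%) and 43 falls (55.8%) among 77, led by Ntm (2.81), Cdh8 (2.60) and Olfm3 (2.52).

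**Figure D3:**
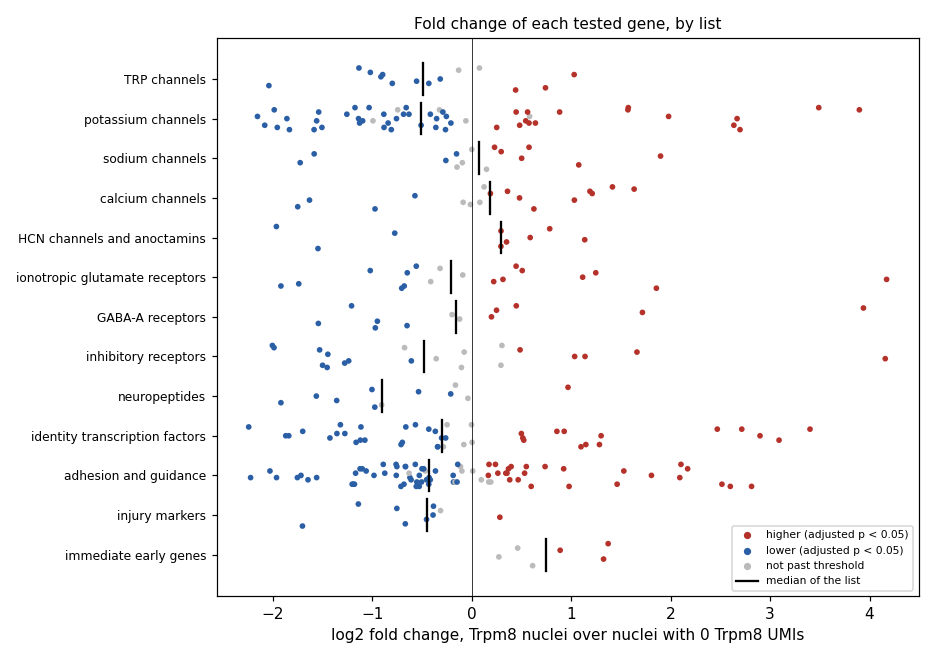
Log2 fold change of every tested gene of 13 gene lists between Trpm8 nuclei and nuclei with 0 Trpm8 UMIs over the 7 10x tables; each point is a gene, red higher and blue lower at adjusted p under 0.05, grey neither, and the black bar is the median of the list. Medians ran from -0.91 for neuropeptides to 0.75 for immediate early genes, and most lists held large changes in both directions.

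Markers of other cell classes were measured beside these groups. Of 14 genes of small-diameter neurons 10 were lower (71.4%) and 4 higher (28.6%), with a median of -1.17, against 21.0% lower and 13.9% higher of all genes tested. Of 15 genes of large-diameter neurons 11 were lower, S100b (-1.33) and Nefh (-0.26 ± 0.06) included, while Kcna2 and Pvalb (0.60 ± 0.11) were higher. All 4 Mrgprd neuron markers were lower, their summed level being 70.2 to 491 CPM in the members and 1003 to 1810 in the other nuclei. The 4 Cdh9 neuron markers summed to 24.7 to 72.0 against 82.3 to 129, with 2 lower and 2, Slc17a8 (0.87) and Th (0.86), higher. Peptidergic markers summed to 375 to 904 against 558 to 1864 (3 of 4 lower), and itch markers to 3.70 to 14.8 against 20.8 to 50.2 (2 of 3 lower).

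Summed markers of non-neuronal cells overlapped between the groups. Satellite glia markers summed to 368 to 873 CPM in Trpm8 nuclei and 329 to 927 in the others, and Schwann cell markers to 404 to 1811 against 478 to 1261. Of the 5 satellite glia markers 2 were higher, Apoe among them, and 1, Glul, was lower. Of the 5 Schwann cell markers 2 were higher, Mbp (0.18) among them, and 1, Pmp22, was lower. In each of these lists 40.0% were thus higher and 20.0% lower, against 13.9 and 21.0% of all genes tested. Fibroblast (25.8 to 80.3 against 36.9 to 74.9), vascular (27.7 to 105 against 51.8 to 139) and leukocyte markers (24.6 to 118 against 28.2 to 172) were low. No marker of these 9 lists was at 0 over all members. Their part in the results was not tested.

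Immediate early genes were higher where they passed: 3 of 6, with none lower. Dusp1, a phosphatase gene induced by activity, was at 29.6 to 78.7 CPM against 14.1 to 21.9 (1.37 ± 0.11) and above the other nuclei in 7 of 7 tables. Egr1 (1.32 ± 0.29) and Fos (0.89 ± 0.34) were each higher in 6 of 7 tables, at levels of at most 13.5 and 8.60 CPM.

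Against 3 other classes the same features could be set side by side. The classes were gated by Mrgprd and Grik1 (1291 nuclei in the 10x tables), Cdh9 and Fam19a4, genes of low-threshold C fibers (694 nuclei), and Tac1 and Trpv1 (1911 nuclei), all without Trpm8 UMIs. Trpm8 nuclei were higher in 20.0% and lower in 21.5% of 8723 genes against Mrgprd nuclei, in 19.7 and 17.0% of 7209 against Cdh9 nuclei, and in 17.7 and 19.5% of 10054 against Tac1 nuclei. The 3 comparisons use the same Trpm8 nuclei. Rora was higher against each, with log2 fold changes of 4.00 ± 0.11, 3.28 ± 0.09 and 4.10 ± 0.10. Kcnk2 was higher by 2.90, 3.30 and 1.89, and Grin3a by 2.43, 1.57 and 1.62.

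Other genes depended on the class they were set against. Oprm1 was higher than in Mrgprd nuclei (1.91 ± 0.12) and Cdh9 nuclei (3.08 ± 0.16), but not past the threshold against Tac1 nuclei (0.05 ± 0.07, edgeR adjusted p = 0.651). Npy1r was likewise higher than in Mrgprd nuclei (2.66 ± 0.35) and did not pass against Tac1 nuclei (0.11 ± 0.21). Runx1 was lower than in Mrgprd (-0.72 ± 0.10) and Cdh9 nuclei (-0.51 ± 0.08) and higher than in Tac1 nuclei (0.92 ± 0.08).

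Nefh and Pvalb, genes of myelinated neurons, were higher in Trpm8 nuclei than in all 3 classes. Nefh gave log2 fold changes of 0.92 ± 0.12, 1.06 ± 0.12 and 0.38 ± 0.13 against Mrgprd, Cdh9 and Tac1 nuclei, and Pvalb 1.70, 1.89 and 1.14. Piezo2 was lower than in each (-1.96, -3.15 and -1.14), and so was Scn10a (-3.14, -1.75 and -2.15). Calca, lower than in Tac1 nuclei by 3.07 on the log2 scale (-3.07 ± 0.21), did not pass against Cdh9 nuclei (-0.04 ± 0.12).

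The largest differences named the partners. Against Mrgprd nuclei the members were highest in 5930412G12Rik (5.17), Slc34a2 (5.14), Gsg1l (4.95), Dnah6 (4.79) and Slc6a7 (4.69), and lowest in Prkcq (-4.28), Slc16a12 (-4.27), Htr4 (-4.00), Tmem45b (-3.98) and Agtr1a (-3.90). Against Cdh9 nuclei they were highest in Mapkapk3 (5.12), 1700123O21Rik (5.07), Slc6a7 (5.02), Dnah6 (4.86) and Gsg1l (4.85), and lowest in Gm38256 (-5.57), the T-type channel Cacna1i (-4.91), Cd34 (-4.52), Gm7271 (-4.40) and the A-type channel Kcnd3 (-4.23). Against Tac1 nuclei they were highest in Slc34a2 (5.91), 9630001P10Rik (4.70), 5930412G12Rik (4.61), Dnah6 (4.30) and A330008L17Rik (4.22), and lowest in Rpl5-ps1 (-3.98), Chrnb3 (-3.69), Trpa1 (-3.56), Pde4c (-3.17) and Ctcflos (-3.09).

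The Trpm8 nuclei were also split by Foxp2, Tac1 and Gpr26. Foxp2 and Gpr26 belong to the rule, so members without the one entered through the rule's other genes, and these splits compare routes of entry. Nuclei with a UMI of the splitting gene were on average deeper than those without in 7 of 7 tables for each gene, and the part of depth in these results was not tested. The 1472 members with Foxp2 differed from the 319 without in 1 higher gene of 3978 (0.0251%), Grik2, a kainate receptor subunit, at 434 against 273 CPM (log2 fold change 0.67 ± 0.12, edgeR adjusted p = 0.0187). None was lower (0.0%), though 380 genes had an unadjusted p under 0.05 and DESeq2 called none. Prkcb, at 0.50 ± 0.11, just missed (edgeR adjusted p = 0.0553). The Grik2 call was the sole one and the count ran from 0 to 5 with 1 table left out; without the table as a block no gene passed in this split or in those by Tac1 and Gpr26.

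For Tac1, which is no gene of the rule, the 786 with a Tac1 UMI were higher than the 1005 without in 16 of 7044 genes (0.227%) and lower in 32 (0.454%). Calca was among the rises (0.55 ± 0.11), beside Dgkg (0.82), Aqp1 (0.68), the small heat shock protein gene Hspb1 (0.57), Gm10288 (0.57) and Nap1l1 (0.49). Rora (-0.33 ± 0.06), Kcnh7 (-0.30 ± 0.05), Ntm (-0.34) and Cdh8 (-0.37) were lower, and the largest falls were Gm10516 (-0.84), the glutamate receptor delta gene Grid1 (-0.56), Gm30382 (-0.50), A330008L17Rik (-0.43) and 5031439G07Rik (-0.42). Rora, the leading marker of the class, was thus lower where Tac1 was present. Of the 16 higher genes DESeq2 also called 1, and of the 32 lower genes 20. The higher genes numbered 4 without the 10x control, 2 without day 2 and 28 without day 21, and the lower genes 14 without the 10x control, 13 without day 2, 15 without day 75 and 18 without scratch lesions.

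For Gpr26, the 773 members with Gpr26 were higher in 93 of 7298 genes (1.27%) and lower in 80 (1.1%) than the 1018 without. Hpca (0.53 ± 0.09) and Pvalb (0.57 ± 0.14) were higher, with Mrpl35 (0.80), Tpbgl (0.77), Ociad2 (0.77), Impa1 (0.71) and Mrpl12 (0.69) the largest rises. Piezo2 (-0.40 ± 0.09) and Scn10a (-0.45 ± 0.11) were lower, and the largest falls were Gnb4 (-0.88), Lrrtm3 (-0.84), the phosphodiesterase gene Pde11a (-0.71), Tox (-0.70) and Spred1 (-0.59). Rora did not pass in this split (-0.07 ± 0.06). Leaving out the 10x control gave 56 higher and 39 lower genes, and leaving out day 75 gave 173 and 166; the lower genes numbered 47 to 50 without day 2, day 7, facial injury or scratch lesions.

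Nerve injury was read from Atf3, a stress transcription factor switched on in axotomized neurons. At equal depth, 1.07% of Trpm8 nuclei held an Atf3 UMI at day 2 after IOT against 5.15% of nuclei without Trpm8, and 2.16% against 3.09% at day 21. At day 7 it was 0 of 122, which allows a share of up to 2.46%, against 6.95%. At day 75 the shares were 0.418 and 1.01%, after facial injury 0.457 and 1.5%, and with scratch lesions 1.15 and 2.34%.

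The share was lower in Trpm8 nuclei in 6 of 6 injury tables, by a mean of 2.47 percentage points (mean difference -2.47, SD 2.54, range -6.95 to -0.593; exact two-sided sign-flip permutation test, p = 0.03125, the smallest that 6 pairs can give). In the 10x control the shares were 0 of 367, allowing up to 0.817%, and 0.182%. At the deposited depth the members stood at 4.98, 0.787, 4.68 and 3.77% over the 4 IOT days and the other nuclei at 12.9, 10.7, 7.68 and 3.89%. A Trpm8 neuron whose Trpm8 or companion RNA dropped under the rule's limit is not a member, and a rarer injury response and such loss from the gate cannot be told apart.

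**Figure D4:**
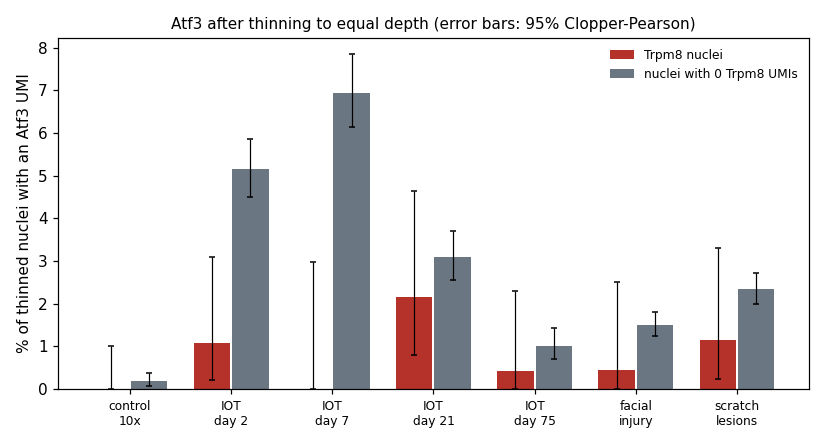
Share of nuclei with an Atf3 UMI, in %, with each nucleus thinned to 1104 UMIs, in Trpm8 nuclei (red) and nuclei with 0 Trpm8 UMIs (grey) of the 7 10x tables; error bars are 95% Clopper-Pearson intervals. The widest gap is at day 7, with 0 of 122 members against 6.95%.

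Over the class contrast, 7 of 9 tested injury markers were lower in Trpm8 nuclei (77.8%) and 1 was higher (11.1%), with a median of -0.46. Of all genes tested, 21.0% were lower and 13.9% higher. Gm29266 (-1.70 ± 0.16), Atf3 (-1.14 ± 0.20), the integrin gene Itgb6 (-0.75 ± 0.14) and the matrix metalloproteinase gene Mmp16 (-0.67) fell, and the integrin gene Itga7 rose (0.28). Nuclei with at least 3 of 10 injury markers made up 3.20% of the thinned members and 12.7% of the thinned others at day 2, and 1.64 and 12.2% at day 7. At day 21 the shares were 2.16 and 5.86%, at day 75 1.67 and 2.72%, after facial injury 0.913 and 1.82%, with scratch lesions 0.382 and 4.04%, and in the 10x control 0.272 and 0.468%. At the deposited depth the gap at day 75 was 23.4 against 23.9%, with overlapping intervals.

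Each injury library was also set against the 10x control within the Trpm8 nuclei. With 1 library a condition there is no test, and a gene was counted when its log2 ratio, with 1 CPM added, was past 2-fold and it held at least 100 CPM in either sum. All 6 comparisons share the same control library. Day 2 gave 50 higher (2.39%) and 49 lower genes (2.34%), day 7 94 (4.24%) and 61 (2.75%), day 21 29 (1.36%) and 75 (3.51%), and day 75 67 (2.98%) and 28 (1.24%). Facial injury gave 251 higher (10.4%) and 53 lower (2.2%), and scratch lesions 169 (7.4%) and 79 (3.46%).

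Many of these differences were also found in nuclei without Trpm8. Of the higher genes, 42 of 50 at day 2, 67 of 94 at day 7, 20 of 29 at day 21, 27 of 67 at day 75, 154 of 251 after facial injury and 101 of 169 with scratch lesions were past 2-fold there too. Of the lower genes, 40 of 49, 4 of 61, 56 of 75, 18 of 28, 30 of 53 and 38 of 79 were, in the same order. In the nuclei without Trpm8, 2221 to 2475 genes a comparison met the same minimum CPM. Of these, 90, 149, 15, 39, 191 and 122 were past 2-fold higher and 50, 13, 59, 28, 53 and 46 lower, in the same order. The shared counts were not held to that minimum in these nuclei, so these totals do not limit them. At day 21, 20 higher genes were shared against a total of 15. The leading higher genes of the members were also past 2-fold in the nuclei without Trpm8. Prss41, a serine protease gene, stood at 128 CPM in the members at day 2 (95% Poisson interval 107 to 152) and 126 at day 7, against 4.44 in the control, with log2 ratios of 4.57 and 4.54 in the members and 4.15 and 4.70 in the other nuclei. Cinp (3.38) and Caln1 (3.03) at day 2, Mrps27 (2.26), F630206G17Rik (2.22) and Pla2g3 (2.05) at day 21, Ropn1 (3.60), Mettl15 (3.17) and Nlrp12 (2.91) at day 75, and Polg2 (4.77), Tpcn2 (2.95) and Vgf (2.77) with scratch lesions were past 2-fold in the nuclei without Trpm8 as well. At day 7 Shcbp1l led with 129 CPM (90.1 to 180) against 1.48 in the control, a sum of 2 UMIs, and RP23-106G8.4 followed (4.12).

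Day 7 had the fewest lower genes in nuclei without Trpm8. In the members Grik1 stood at 44.3 CPM (22.9 to 77.5) against 400 in the control, a log2 ratio of -3.15 beside -0.62 in the other nuclei, Piezo2 at 40.7 (20.3 to 72.7) against 276 (-2.73 beside -0.66), and Fxyd2, a sodium pump regulator, at 44.3 against 160 (-1.83 beside -0.33). The members of day 7 summed to 270580 UMIs, the fewest of the 10x tables. The summed Mrgprd neuron markers include Grik1, so their level is not separate from its fall. In the members of day 7 they summed to 70.2 CPM, of which Grik1 supplied 44.3. In the 10x control they summed to 455, of which Grik1 supplied 400. Over the 10x tables other than day 7 they ran from 296 to 491. Their part in these values was not tested.

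The largest lower ratios elsewhere were shared with the other nuclei: Gm10039 (-1.92), Dtx3 (-1.87) and Dctn1 (-1.80) at day 2, Rpl38-ps2 (-3.41), Gm14303 (-2.58) and the metallothionein gene Mt3 (-2.41) at day 21, Nrg3os (-2.50), Fam160b2 (-2.47) and 4930555F03Rik (-2.25) at day 75. With scratch lesions they were Mettl23 (-5.07, from 157 CPM to 3.68, a sum of 3 UMIs with an interval of 0.760 to 10.8), 4930555F03Rik (-3.70) and St3gal4 (-3.48). After facial injury Gm12709 (-2.77) and Unc5cl (-2.07) were lower in both groups, while Cep89, a gene marking the Trpm8 nuclei, was at 58.6 CPM against 268 (-2.17 beside -0.43). Cep89 was also lower with scratch lesions (61.4 CPM, -2.11 beside -1.07) and at day 21 (123 CPM, -1.11 beside -0.50). It stood at 293, 495 and 306 CPM at days 2, 7 and 75.

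Calca was among the leading ratios of 1 library. After facial injury it stood at 502 CPM (447 to 562) in the members against 116 in the control, a log2 ratio of 2.1, beside 1.62 in nuclei without Trpm8. The members of the scratch lesions library held 478 CPM and their other nuclei 1203, the other high pair among the 10x tables. The other 3 peptidergic markers (Tac1, Trpv1 and Adcyap1) summed to 402 and 334 CPM in the members of these libraries against 225 to 285 in the other 10x tables. Their part in the Calca values was not tested.

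Marker genes of the class were followed over the injuries. Rora was lower than in the 10x control by log2 ratios of -0.23, -0.29, -0.47 and -0.31 at the 4 IOT days, -0.85 after facial injury and -0.46 with scratch lesions. In nuclei without Trpm8 its ratios were -0.04, -0.45, -0.40, 0.31, -0.57 and -0.22 in the same order. Hpca was past 2-fold lower in 4 of 6 libraries, at 154 CPM on day 2, 150 on day 21, 104 after facial injury and 124 with scratch lesions, but stood at 206 on day 75 and 617 on day 7 against 316 in the 10x control and 540 in Drop-seq. In nuclei without Trpm8 its log2 ratios were -0.39, 0.75, -1.05 and 0.73 at the 4 IOT days, -0.36 after facial injury and -0.85 with scratch lesions. The 5 genes past 2-fold in at least 4 libraries, all lower, were Hpca, 1700123O21Rik, Fam160b2, Atxn2l and Ndufa3. In nuclei without Trpm8, Fam160b2 was lower in the same 5 libraries, by log2 ratios of -1.83, -1.71, -2.02, -1.76 and -1.55, 1700123O21Rik ran from -1.51 to -0.74, Ndufa3 from -1.62 to -0.08 and Atxn2l from -1.76 to 0.07. A lone control library gives no spread against which to read them.

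Hjurp, which encodes the chaperone of the centromeric histone CENP-A, tracked Trpm8 closely. The 2 genes lie head to head on chromosome 1: in mouse build mm10 Trpm8 spans chr1:88277661-88389293 on the plus strand, and the outermost Hjurp transcript starts on the minus strand at position 88277633. The Trpm8 transcript starting at 88277661 is annotated as a processed transcript, and the protein-coding ones start at 88303283, 88306759 and 88318913. The 27 bases at chr1:88277634-88277660 are shown because they are all that separates the outermost starts of the genes. The 2 genes are transcribed away from each other.
Between the starts of Hjurp and Trpm8, plus strand: ggggagggacgagagggagggtccgcc
The RefSeq start of Trpm8 lies 29074 bases further on. The 177 bases at chr1:88306485-88306661 end where an annotated exon begins shortly before that start. Seen from the outermost Trpm8 transcript they are intron, and the capitals mark the final AG ahead of the exon.
Ahead of the exon at the RefSeq Trpm8 start, plus strand: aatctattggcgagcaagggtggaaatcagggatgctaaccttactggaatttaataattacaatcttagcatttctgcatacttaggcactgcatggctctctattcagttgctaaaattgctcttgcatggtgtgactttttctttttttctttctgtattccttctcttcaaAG

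A Hjurp UMI was present in 96.5% of Trpm8 nuclei of the 10x control and 21.2% of nuclei without Trpm8. Summed by the number of Trpm8 UMIs in the nucleus, Hjurp in the 10x control stood at 65.7 CPM with 0, 403.7 with 1, 1469 with 2 to 4, 1834 with 5 to 9 and 1909 with 10 or more. The 10x tables of C57BL mice, the control included, ran from 56.4 to 160.1 CPM with 0 over 171.5 to 1127 with 1 to 877.8 to 2323 with 2 to 4. The scratch lesions library held the least Hjurp with 0 Trpm8 UMIs and with 2 or more, at 22.8, 191.5, 392.3, 408.4 and 549 CPM in the same steps, and its members held 399 CPM against 1126 to 2336 in the other 10x tables. Since Hjurp and Trpm8 adjoin, reads assigned across the pair and RNA made from both cannot be told apart, which is why Hjurp was left out of the tests.

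**Figure D5:**
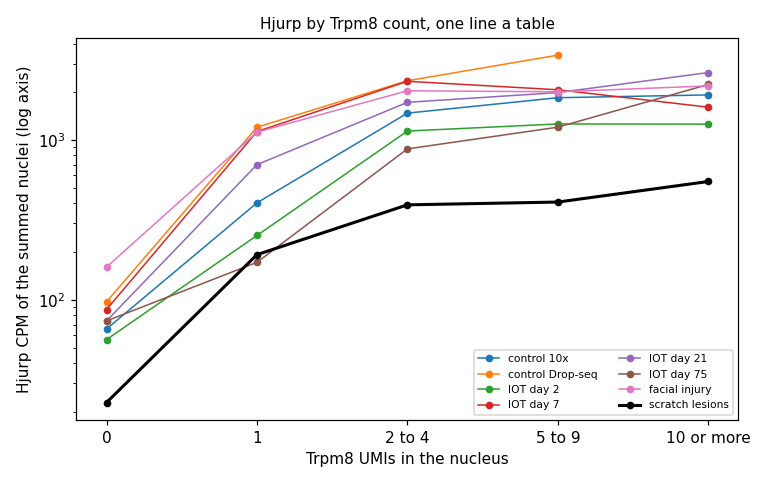
Hjurp level of the summed nuclei, in CPM on a log axis, by the number of Trpm8 UMIs in the nucleus; 1 line a table, the scratch lesions table in thick black. In the 10x control Hjurp runs from 65.7 CPM with 0 Trpm8 UMIs to 1909 with 10 or more, and the scratch lesions line from 22.8 to 549.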

How the data were processed

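Nuclei of trigeminal ganglia were profiled by 10x Chromium (version 2 chemistry) or Drop-seq. Per the labels and the study's methods, reads were aligned to mm10 with introns counted, and the submitters' processing notes list Seurat 2, STAR 2.5.3a, Cell Ranger 2.1.0 and bcl2fastq 2.17. Which release of the gene models they counted on was not stated. The deposited tables hold UMI counts per gene and nucleus, from which the authors had removed nuclei by genes detected and mitochondrial share, and non-neuronal clusters, so shares are shares of the nuclei they kept. The 10x tables held 9135460 to 22003842 UMIs each.

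Counts of the nuclei of each group were summed per table and fitted over the 7 10x tables with the table as a block (edgeR 4.0.16, TMM scaling, filterByExpr, quasi-likelihood test, Benjamini-Hochberg threshold 0.05); DESeq2 1.42.0 was an alternative. The genes of the gates and Hjurp were left out. Levels are CPM of the summed counts with 95% exact Poisson intervals; shares carry Clopper-Pearson intervals, and floors for a share of 0 are 3 counts of the total. Share comparisons used nuclei thinned to 1104 UMIs. No doublet caller was run; leaving out the nuclei above the 95th percentile of UMIs of each table was an alternative, and 1.36 to 7.11% of members lay above it. The fits were tested on simulated data. Sequences and positions are those of mm10 with GENCODE and RefSeq annotation.

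Genes were named as the 15 largest rises and 10 largest falls past the threshold at 30 CPM or more in the higher group and in the same direction in all 7 tables, the 5 largest each way in the other fits, up to 4 members of each of 27 gene lists with those needed to show what did not pass, and the 3 largest ratios each way per injury. The members, the lists and these rules were chosen with earlier results of these data known. Of the listed genes, 367 of 407 were tested. Grin3a, Prkcb, Kcnh7 and Hpca in the splits and class comparisons were named after their values were seen. Labels share no replicate numbers between groups. The results of a few genes are not reported here.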

Additional observations from a re-analysis of the deposited data

How the results depend on the processing

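No single-gene result past the threshold in the main fit reversed direction under an alternative run that gave an adjusted p. Of single-gene results under the alternatives, 2209 counted as unchanged, 161 fell short of the threshold and 1 passed it (Ier2, with Drop-seq added). For genes not past the threshold in the main fit, a change of direction was also counted as unchanged. With nuclei of at least 3 injury markers at the deposited depth left out, Atf3 (-0.04) and Itgb6 (-0.26), which are among those markers, no longer passed, as the setting's construction entails. The groups compared are paired by table, not by replicate numbers of the labels. Without the table as replicate block, higher and lower counts were 697 and 1081 against nuclei without Trpm8, 1057 and 1062 against Mrgprd, 744 and 688 against Cdh9 and 823 and 822 against Tac1 nuclei, and 0 in the Foxp2, Tac1 and Gpr26 splits. Without the low-count filter, 2137 genes were higher than in Cdh9 nuclei. Without TMM, the Tac1 class gave 1326 higher and 2666 lower, the Tac1 split 32 and 17, and the Gpr26 split 158 and 58. For these counts the cause was not tested.

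Split counts moved with many settings. The Foxp2 split gave 0 higher by DESeq2, 3 without TMM, 94 and 17 (higher and lower) without the filter, 3 and 3 with Drop-seq, 0 higher under the stricter gate, 18 and 22 without the deepest nuclei and 11 and 14 without injury-profile nuclei. The Tac1 split gave 4 higher by DESeq2, 54 lower without the filter, 8 and 18 under the stricter gate, 9 higher without the deepest nuclei, and 9 and 13 without injury-profile nuclei. Of the 16 higher genes of its main fit, DESeq2 also called 1 and the stricter gate 3. Without the deepest nuclei 2 of them passed, and without injury-profile nuclei 3. Of the 32 lower genes, 20, 16, 22 and 13 passed in the same order. The Gpr26 split gave 61 and 30 by DESeq2, 50 and 28 under the stricter gate and 198 and 191 without the deepest nuclei. Leaving out 1 table gave 0 to 5 higher and 0 to 6 lower for Foxp2, 2 to 28 and 13 to 48 for Tac1, and 56 to 173 and 39 to 166 for Gpr26; day 75 left out gave the highest Gpr26 counts, and the 10x control left out the lowest. Of the Tac1 counts, leaving out day 2 gave 2 higher and 13 lower, and day 21 28 higher.

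The mean Atf3 difference ran from -2.84 to -1.57 with 1 injury table left out (day 7 for the smaller), where 5 pairs allow no exact p under 0.0625. Gate shares at 3 or more Trpm8 UMIs were 7.10% in the 10x control, 0.976% in Drop-seq, 4.60, 1.93, 4.72 and 5.20% over the IOT days, 1.27% after facial injury and 2.22% with scratch lesions; thinned Drop-seq nuclei gave 0.653%. Thinned shares in the same order were 3.98, 2.60, 2.05, 2.27, 1.62, 1.08 and 1.28%. With 2 or more companion UMIs, the share was 2.58% at day 7, 2.28% after facial injury and 2.89% with scratch lesions. A minimum of 50 CPM gave injury counts of 117 and 99, 255 and 182, 65 and 158, 152 and 82, 499 and 127, and 294 and 175, higher and lower, in the order of the libraries above, and the stricter gate 92 lower at day 7. Depth limits shares of 0: a count of 0 allowed up to 3.95% of the thinned Drop-seq members, 2.46% at day 7 and 0.817% in the 10x control.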

Other observations

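The Drop-seq control was set beside the 10x control as a platform difference. Its members were past 2-fold higher in 614 and lower in 342 of 2608 genes. Rora stood at 928 CPM there against 3496 in the 10x control, Gpr26 at 600 against 233, Hpca at 540 against 316 and Hjurp at 2536 against 1742, while Kcnk2 stood at 353 against 363. In nuclei without Trpm8, Rora stood at 126 against 296.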
